A study of Mus musculus with 9 samples.

Results

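Krüppel-like factors (KLFs) are transcription factors that bind GC-rich and CACCC-type DNA through a set of C-terminal zinc fingers, and they differ mainly in the N-terminal part, which recruits coactivators or corepressors. In blood they are known for roles in red cell, monocyte and lymphocyte maturation and in keeping lymphocytes quiescent. The family members described here were Klf2, Klf3, Klf4, Klf6, Klf7, Klf9, Klf10, Klf11, Klf13 and Klf16, chosen by gene symbol. All 10 had a row among the 24391 gene rows of the count table, and all 10 passed the low-count filter that left 12573 genes for testing.

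The RNA-seq libraries came from bone marrow cells of C57BL/6 mice, labelled as 6 to 8 weeks old, with leukaemia of the AML1-ETO9a model. AML1-ETO9a is a truncated variant of the fusion protein that t(8;21) leukaemia makes. Leukaemic marrow had been sorted by surface CD43, a leukocyte sialoglycoprotein, and c-Kit, the stem cell factor receptor, into CD43++ckit+, CD43+ckit- and CD43-ckit- cells, with 3 libraries each. All 3 populations came from leukaemic marrow, so there is no healthy marrow to compare with. The share of leukaemic cells in each was not measured here. The labels do not say how the fusion was introduced or whether each library came from a mouse of its own. P-values therefore measure only the spread between these libraries, which may be technical.

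Total counts were between 17966197 and 31781746. Totals were lowest in the CD43-ckit- libraries, whose TMM scaling factors were the smallest (0.589 to 0.776, against 1.054 to 1.41 elsewhere). Levels below are CPM: each count was divided by its library's total times this factor and brought to a common library size. Kit ranged from 146.0 to 175.5 CPM in CD43++ckit+ cells and from 7.8 to 42.1 CPM in the populations sorted as c-Kit negative. Spn, which encodes CD43, ranged from 431.7 to 555.2 CPM in CD43++ckit+ cells and from 71.7 to 232.5 CPM in the other libraries. Red cell genes were abundant throughout: 12 erythroid markers summed to 2995 to 3807 CPM in CD43++ckit+ cells, 19430 to 22590 CPM in CD43+ckit- cells and 40040 to 63960 CPM in CD43-ckit- cells. Library 3 of CD43++ckit+ stood apart within its population by its neutrophil transcripts: 14 neutrophil genes summed to 6502 CPM there and to 423.8 and 148.5 CPM in libraries 1 and 2. In CD43+ckit- that sum was 837.8, 4387 and 3505 CPM, and in CD43-ckit- cells it was 7250, 19960 and 20110 CPM. These are bulk libraries, in which fewer cells of a type and less RNA per cell cannot be told apart.

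Start-site sequences are shown for 4 genes because their transcripts followed the 2 main patterns described below: Klf6, Klf7 and Klf9, which stepped up in CD43-ckit- cells, and Klf2, which varied between libraries of a population along with transcripts of mature blood cells. Each is the 250 bases before the RefSeq start in GRCm38.p6, in the direction of transcription, and capitals mark the KLF and SP binding box CCNCNCCC on either strand.
Klf6 (chr13:5861239-5861488, + strand): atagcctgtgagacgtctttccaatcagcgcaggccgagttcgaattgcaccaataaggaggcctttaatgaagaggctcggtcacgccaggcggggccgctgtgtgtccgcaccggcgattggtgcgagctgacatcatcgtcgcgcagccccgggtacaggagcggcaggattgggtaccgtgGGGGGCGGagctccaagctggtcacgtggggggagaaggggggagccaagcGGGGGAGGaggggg
Klf7 (chr1:64121390-64121639, - strand): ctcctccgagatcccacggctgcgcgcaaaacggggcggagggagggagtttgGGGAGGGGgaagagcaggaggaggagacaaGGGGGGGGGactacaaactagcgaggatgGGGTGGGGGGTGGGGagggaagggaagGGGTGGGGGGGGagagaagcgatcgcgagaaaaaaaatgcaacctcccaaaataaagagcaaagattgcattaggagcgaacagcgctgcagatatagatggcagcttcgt
Klf9 (chr19:23140976-23141225, + strand): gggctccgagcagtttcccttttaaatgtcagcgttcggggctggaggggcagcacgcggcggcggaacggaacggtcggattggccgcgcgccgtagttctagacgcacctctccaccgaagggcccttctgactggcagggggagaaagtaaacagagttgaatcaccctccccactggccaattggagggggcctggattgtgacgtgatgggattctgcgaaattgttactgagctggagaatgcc
Klf2 (chr8:72318812-72319061, + strand): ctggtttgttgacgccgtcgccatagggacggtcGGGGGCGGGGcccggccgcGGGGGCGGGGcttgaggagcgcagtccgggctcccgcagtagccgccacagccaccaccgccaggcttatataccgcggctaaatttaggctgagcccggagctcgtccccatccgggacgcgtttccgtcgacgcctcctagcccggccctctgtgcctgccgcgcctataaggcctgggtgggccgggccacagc

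The RefSeq table held such windows for 8 of the 10 genes. The KLF and SP box had 2 matches before Klf6, 8 before Klf7, 4 before Klf2 and 0 before Klf9, with overlapping matches counted separately. Over the 8 genes, 7 windows held at least 1 match, and 45.9% of the 32851 RefSeq windows of this length did. These windows were rich in G and C (64.8% for Klf6 and 71.2% for Klf2, against a median of 52.4% over all windows). CCAAT was found 4 times before Klf6 and 3 times before Klf9, in either orientation, and 33.8% of all windows held it. A match to the MEF2 consensus, the site of the MEF2 transcription factors, lay in the Klf2 window as CTAAATTTAG, its first base 118 bases before the start. It was the 1 window of the 8 with such a match, and 2.9% of all windows had one. TGTGGT, the core letters of a RUNX site, and AGATAA, those of a GATA site, were in none of the 8 windows on either strand, and 14% and 10% of all windows held them. These matches describe letters and not binding.

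Transcripts of most KLF genes were lowest in CD43++ckit+ cells and highest in CD43-ckit- cells. The mean was highest in CD43-ckit- cells for 8 genes, in CD43+ckit- cells for Klf13 and in CD43++ckit+ cells for Klf10. Among all tested genes, 37.0% had their highest mean in CD43-ckit- cells, 23.6% in CD43+ckit- cells and 39.4% in CD43++ckit+ cells. Against CD43-ckit-, 9 of the 10 genes were lower in CD43++ckit+ cells and 0 higher by edgeR's quasi-likelihood test at an adjusted p under 0.05, where 67.4% of tested genes were called, 27.7% lower and 39.7% higher. In these 9 the libraries did not overlap, which held for 73.2% of tested genes. The median log2 fold change of the 10 KLF genes was -2.36, and that of all tested genes was 0.19. In CD43++ckit+ versus CD43+ckit- 5 genes were lower and 0 higher, against a background of 39.8% called and 20.1% called lower, with medians of -0.99 for the KLF genes and 0.013 for all tested genes. Comparing CD43+ckit- with CD43-ckit-, 5 were lower and 1 higher, against 51.9% called, 20.9% called lower and 31.0% called higher, with medians of -1.53 and 0.13. The 3 comparisons share libraries and are not independent of each other.

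**Figure D1:**
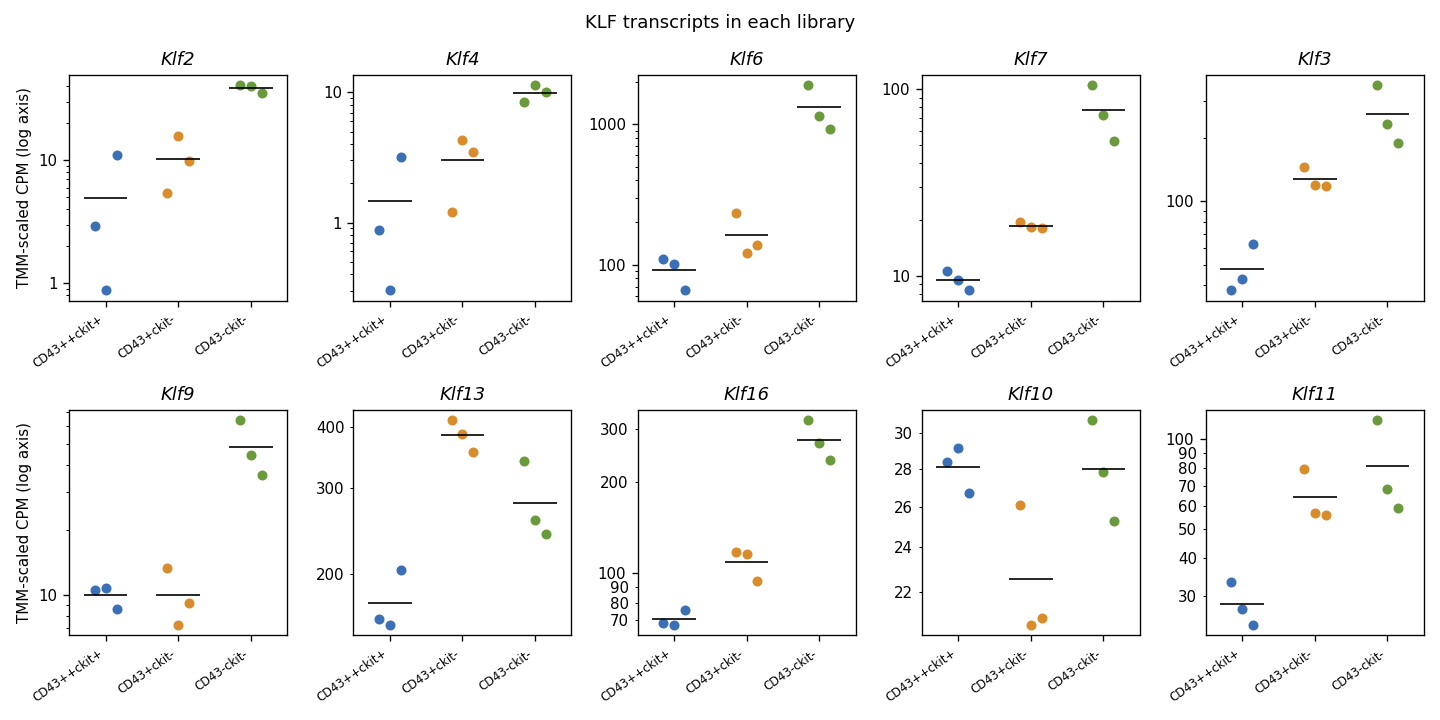
TMM-scaled CPM (log axis, a separate scale in each panel) of the 10 KLF genes in the 9 libraries, with points for libraries 1 to 3 from left to right within a population and a line at the mean. Klf6 reaches 930.7 to 1901 CPM in CD43-ckit- cells, Klf13 peaks in CD43+ckit- cells, and Klf10 stays between 20.6 and 30.8 CPM.

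Klf6 and Klf7 are close relatives that act mostly as activators, and Klf6 is induced by injury and inflammatory signals. Klf6 stood at 110.3, 101.5 and 65.8 CPM in libraries 1 to 3 of CD43++ckit+, at 232.0, 121.6 and 138.2 CPM in CD43+ckit- cells and at 1901, 1147 and 930.7 CPM in CD43-ckit- cells. Every CD43-ckit- library lay far above the other 6. Klf6 was 8.09-fold lower in CD43+ckit- cells than in CD43-ckit- cells (log2 fold change -3.02 ± 0.36 SE, adjusted p = 0.000288) and 14.3-fold lower in CD43++ckit+ cells (-3.84 ± 0.37 SE, adjusted p = 4.01e-05). The CD43++ckit+ and CD43+ckit- libraries did not overlap either, which held for 55.5% of tested genes, but the difference missed the threshold (-0.83 ± 0.34 SE, adjusted p = 0.0808). It passed in a fit with same-numbered libraries as blocks (adjusted p = 0.0116), with CD43-ckit- library 1 left out (0.0490), with the filter of at least 1 CPM in all libraries (0.0431) and in the DESeq2 test (0.0204). The blocked value is limited, since the numbers were not taken to pair CD43++ckit+ libraries with the others. In every population 1 library was least like its replicates: library 3 of CD43++ckit+ cells and library 1 in both other populations. With these left out the Klf6 difference shrank to -0.30 (adjusted p = 0.0495). Leaving out libraries for being unlike their replicates lowers the spread that the test measures, so calls gained this way carry that limit. Over all tested genes the share called in this comparison went from 39.8% to 67.6%.

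Klf7 ranged from 8.35 to 10.7 CPM in CD43++ckit+ cells, from 18.1 to 19.4 CPM in CD43+ckit- cells and from 52.7 to 105.3 CPM in CD43-ckit- cells. The populations did not overlap, and all 3 differences were called: -0.96 ± 0.23 SE for CD43++ckit+ versus CD43+ckit- (adjusted p = 0.00954), -2.05 ± 0.23 SE for CD43+ckit- versus CD43-ckit- (adjusted p = 0.000237) and -3.02 ± 0.24 SE from end to end (adjusted p = 1.37e-05). These calls held under every alternative run. In the GENCODE M21 annotation 3196 exon bases of Klf7 lie opposite the antisense gene Gm26649, and the strand setting of the counting is not given in the sources used here, so part of the Klf7 counts is uncertain.

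Within CD43-ckit-, library 1 was the highest of the 3 for Klf2, Klf3, Klf6, Klf7, Klf9, Klf10, Klf11, Klf13 and Klf16, and it also had the smallest scaling factor (0.589). Scaled by library totals alone, it was the lowest of the 3 for Klf2 (24.2, against 29.6 and 27.7 CPM) and Klf10 (18.1, against 20.4 and 19.6). For Klf16 it was then below library 2 (188.7 against 197.1), and for the other genes named it stayed highest. Immediate early genes, which respond within minutes to growth factors and to stress, moved the same way as Klf6: 14 of them summed to 380.6 to 895.7 CPM in CD43++ckit+ cells, 1533 to 2855 CPM in CD43+ckit- cells and 9421 to 15770 CPM in CD43-ckit- cells, again highest in library 1 of CD43-ckit-. Of those 14 genes, 1 of which (Dusp1) is also in the glucocorticoid list below, 12 were lower in CD43++ckit+ cells than in CD43-ckit- cells and 11 were lower in CD43+ckit- cells than in CD43-ckit- cells, with 0 higher in either. Over all tested genes 27.7% and 20.9% were called lower in the same comparisons. The part of such a response in these KLF differences was not tested.

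Klf2 and Klf4 form a pair of activators: Klf2 keeps lymphocytes quiescent and directs their homing, and Klf4 drives monocyte maturation. Klf2 measured 2.92, 0.875 and 11.01 CPM in libraries 1 to 3 of CD43++ckit+, 5.38, 15.7 and 9.90 CPM in CD43+ckit- cells, and 41.0, 40.3 and 35.7 CPM in CD43-ckit- cells. Klf4, which was scarcer, measured 0.870, 0.301 and 3.22 CPM in CD43++ckit+ cells, 1.21, 4.33 and 3.46 CPM in CD43+ckit- cells, and 8.41, 11.4 and 10.1 CPM in CD43-ckit- cells. Both genes were highest in all 3 CD43-ckit- libraries, and in the other populations the high libraries were those with high neutrophil sums: library 3 of CD43++ckit+ and libraries 2 and 3 of CD43+ckit-. The neutrophil sums of CD43-ckit- library 1 (7250 CPM) and CD43++ckit+ library 3 (6502 CPM) lay close together. Klf2 was 41.0 CPM in the former and 11.01 CPM in the latter, and Klf4 was 8.41 and 3.22 CPM. Both were lower in CD43++ckit+ cells than in CD43-ckit- cells (Klf2 -2.98 ± 0.80 SE, adjusted p = 0.0103; Klf4 -2.75 ± 0.78 SE, adjusted p = 0.0114), although Klf4 missed the threshold with library totals (-1.81, adjusted p = 0.0701).

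Against CD43+ckit- the CD43++ckit+ libraries overlapped for both genes, and neither was called (Klf2 -1.06 ± 0.76 SE, adjusted p = 0.308; Klf4 -1.03 ± 0.74 SE, adjusted p = 0.310). With library 3 of CD43++ckit+ left out, both were called lower there, at -2.44 for Klf2 (adjusted p = 0.00711) and -2.34 for Klf4 (adjusted p = 0.0131), and the count of KLF genes called in that comparison went from 5 to 7. With the 3 libraries least like their replicates left out it went to 10, with 2 higher (Klf9 and Klf10). The share of all tested genes called was 39.8% with all libraries, 46.3% without library 3 of CD43++ckit+ and 67.6% in the last setting. From CD43+ckit- to CD43-ckit- the libraries of both genes were apart, which held for 64.3% of tested genes, yet the differences missed the threshold (Klf2 -1.92 ± 0.77 SE, adjusted p = 0.0646; Klf4 -1.73 ± 0.75 SE, adjusted p = 0.0776). They passed when CD43++ckit+ library 2 (adjusted p = 0.0148 and 0.0304) or library 3 (0.00619 and 0.0137) was left out, neither of which belongs to the populations compared. They also passed in the DESeq2 test (0.00748 and 0.0225) and in a fit of the 2 populations alone (0.0037 and 0.0126). The replicate numbers paired CD43+ckit- with CD43-ckit- libraries, and with these pairs as blocks in a fit of the 2 populations Klf2 stood at -2.08 (adjusted p = 5.48e-25) and Klf4 at -1.91 (adjusted p = 1.4e-12). That fit had 2 residual degrees of freedom and took the spread as common to nearly all genes, and its p-values are far smaller than those of the other fits. In the blocked fit of all 9 libraries neither gene was called.

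**Figure D2:**
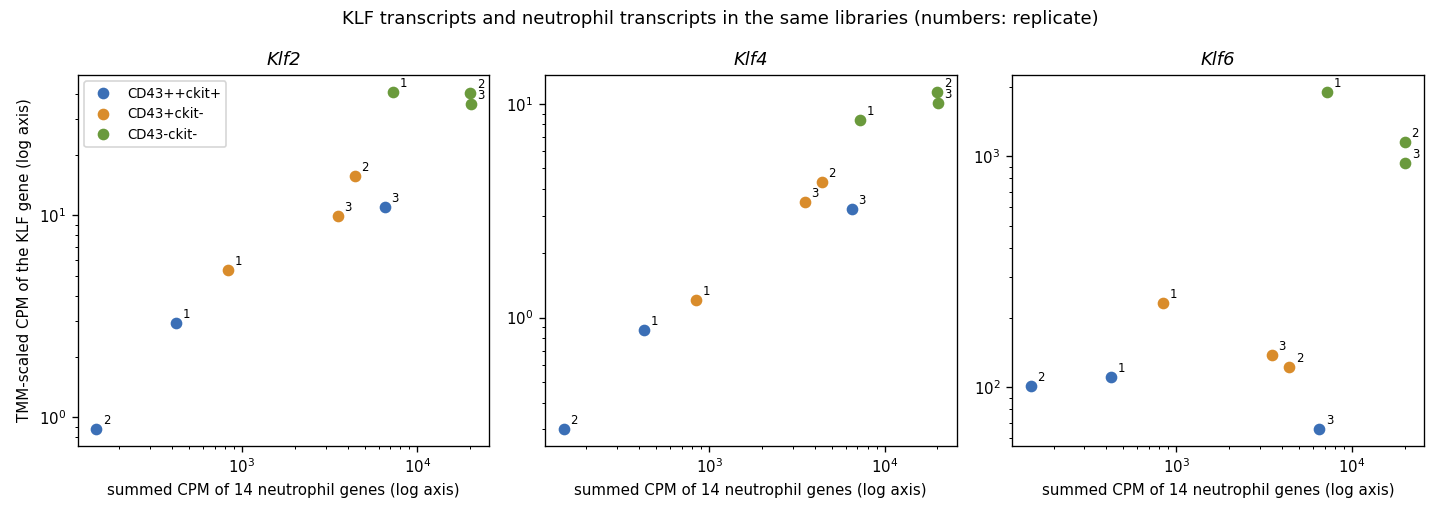
TMM-scaled CPM of Klf2, Klf4 and Klf6 against the summed CPM of 14 neutrophil genes in each library (both axes logarithmic, numbers give the replicate). Klf2 and Klf4 are lowest in library 2 of CD43++ckit+, where the neutrophil sum is 148.5 CPM, and Klf6 is low in library 3 of CD43++ckit+ (65.8 CPM), where that sum is 6502 CPM. Mxd1, 1 of the 14 genes, makes up a sizeable part of the lowest sum in each population.

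Markers of other cell types also differed in summed level between the populations. Monocyte and macrophage genes (12) summed to 31.0, 19.2 and 123.0 CPM in libraries 1 to 3 of CD43++ckit+, to 25.2, 64.0 and 56.8 CPM in CD43+ckit- cells and to 194.7, 238.7 and 249.8 CPM in CD43-ckit- cells. B-lineage genes (9) summed to 3.97 to 26.6, 15.3 to 45.2 and 88.1 to 225.3 CPM in the same order of populations, T and NK cell genes (9) to 5.03 to 27.2, 32.5 to 38.1 and 30.3 to 56.0 CPM, and stroma and endothelium genes (7) to 1.72 to 7.97, 5.45 to 8.88 and 24.4 to 32.2 CPM. Mast cell and basophil genes (8) summed to 949.8 to 1858, 480.4 to 494.2 and 292.7 to 485.6 CPM, although the basophil protease genes Mcpt8 (1.28, 0.734 and 9.81 CPM) and Prss34 (4.96, 2.85 and 37.8 CPM) had their highest mean in CD43-ckit- cells. Megakaryocyte genes (8) summed to 176.5 to 217.9, 131.5 to 176.3 and 85.6 to 99.1 CPM. Gp5 made up most of that sum in CD43++ckit+ cells (191.4 CPM) and CD43+ckit- cells (114.6 CPM). In CD43-ckit- cells Gp5 was at 38.6 CPM and Itga2b at 41.2 CPM. The other megakaryocyte genes tested, Pf4, Itga2b, Gp9 and Vwf, were lower in CD43++ckit+ cells than in CD43+ckit- cells (-2.42, -1.59, -2.68 and -2.24, all called). These mast cell, basophil and megakaryocyte genes were singled out after their values were seen. Of the 14 neutrophil genes 1, Mxd1, was lower and 0 higher in each of the 3 comparisons, and the others were not called. Mxd1 ranged from 47.8 to 110.0, 320.0 to 435.8 and 2034 to 3206 CPM in the same order of populations. It was a sizeable part of the lowest neutrophil sum in each population, including the 7250 CPM of CD43-ckit- library 1. Of the 12 monocyte and macrophage genes 4 were lower in CD43++ckit+ cells than in CD43-ckit- cells and 8 lower in CD43+ckit- cells than in CD43-ckit- cells. Of the 9 B-lineage genes, all 9 were lower in CD43++ckit+ cells than in CD43-ckit- cells (adjusted p from 0.00162 to 0.0294), and 7 were lower in CD43+ckit- cells than in CD43-ckit- cells. In these 2 comparisons 27.7% and 20.9% of all tested genes were called lower. Over the 9 libraries, Pearson's r of Klf2 with the mean log2 CPM of a list was 0.956 for stroma and endothelium, 0.947 for B-lineage, 0.938 for neutrophil, 0.906 for T and NK and 0.905 for monocyte and macrophage genes. For Klf4 these were 0.952, 0.931, 0.969, 0.927 and 0.915, so neither gene followed 1 list alone. With erythroid genes r was 0.808 for Klf2 and 0.771 for Klf4. High values were not particular to this pair: with stroma and endothelium and with B-lineage genes, Klf16 had 0.937 and 0.930 and Klf7 0.914 and 0.904. Klf13 (0.388 and 0.425) and Klf10 (0.076 and 0.052) had lower values there. With neutrophil genes Klf16 had 0.704 and Klf7 0.643. No neutrophil, monocyte and macrophage or B-lineage marker was at 0 in any library, and of the T and NK markers Cd3d, Cd3g, Cd4, Cd8a and Klrb1c were at 0 in at least 1 CD43++ckit+ library. The part of such cells in the Klf2 and Klf4 differences was not tested. Klf5, an activator known from epithelia that lies outside the 10, had 2, 1 and 161 counts in CD43++ckit+ cells, 6, 40 and 32 in CD43+ckit- cells and 22, 103 and 74 in CD43-ckit- cells, and was not called in any comparison. Klf8, Klf12, Klf14, Klf15 and Klf17 had at most 9 counts in any library and were not tested.

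Klf3, which binds the corepressor CtBP and is known to act as a repressor in red cell precursors, stepped up in both transitions. Its libraries 1 to 3 measured 37.8, 42.8 and 62.5 CPM in CD43++ckit+ cells, 145.6, 118.9 and 118.7 CPM in CD43+ckit- cells, and 355.9, 233.8 and 188.7 CPM in CD43-ckit- cells. The populations did not overlap. Klf3 was 2.68-fold lower in CD43++ckit+ cells than in CD43+ckit- cells (-1.42 ± 0.26 SE, adjusted p = 0.00298) and 2.03-fold lower in CD43+ckit- cells than in CD43-ckit- cells (-1.02 ± 0.26 SE, adjusted p = 0.0104), the second difference falling to -0.34 (adjusted p = 0.220) with library totals. Its order over the populations was that of the summed erythroid markers given above, whose part in the Klf3 difference was not tested. All 12 markers were lower in CD43++ckit+ cells than in CD43+ckit- cells, where 20.1% of tested genes were called lower. From CD43+ckit- to CD43-ckit- the markers did not move together: 4 were lower in CD43+ckit- cells, 1 (Rhag) was higher and 7 were not called, where 20.9% of tested genes were called lower. An antisense gene, Gm20033, shares 404 exon bases with Klf3.

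Klf9, Klf13 and Klf16 belong to a subgroup that recruits the SIN3 corepressor, and they followed 3 different courses. Klf9, a gene induced by glucocorticoids and thyroid hormone, measured 10.5, 10.8 and 8.62 CPM in CD43++ckit+ cells, 13.4, 7.24 and 9.20 CPM in CD43+ckit- cells, and 64.3, 44.3 and 35.7 CPM in CD43-ckit- cells. The first 2 populations overlapped (0.0047 ± 0.27 SE, adjusted p = 0.992), and both lay below every CD43-ckit- library. Klf9 was 4.84-fold lower in CD43+ckit- cells than in CD43-ckit- cells (-2.28 ± 0.28 SE, adjusted p = 0.000342) and 4.83-fold lower in CD43++ckit+ cells (-2.27 ± 0.28 SE, adjusted p = 0.000137).

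Klf13, which is known from T cells and red cell precursors, peaked in CD43+ckit- cells. It measured 161.7, 157.1 and 204.3 CPM in CD43++ckit+ cells, 414.6, 387.0 and 356.5 CPM in CD43+ckit- cells, and 341.0, 257.7 and 241.9 CPM in CD43-ckit- cells, without overlap between populations. Against the mean of the other 2 populations it was higher in CD43+ckit- cells (0.80 ± 0.14 SE, adjusted p = 0.00445), a test in which 28.4% of genes were called and 18.0% called higher, and this call held in every alternative run. It was 2.21-fold lower in CD43++ckit+ cells than in CD43+ckit- cells (-1.15 ± 0.17 SE, adjusted p = 0.00104). The fall from CD43+ckit- to CD43-ckit- was small (0.46 ± 0.17 SE, adjusted p = 0.0430), and with DESeq2 size factors it missed the threshold (0.27, adjusted p = 0.186), as it did without any one of 6 libraries (adjusted p from 0.0537 to 0.125): library 1 of CD43++ckit+, each library of CD43+ckit-, and library 2 or 3 of CD43-ckit-. The difference between CD43++ckit+ and CD43-ckit- was -0.68 ± 0.17 SE (adjusted p = 0.00555) and turned to 0.26 (adjusted p = 0.126) with library totals.

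Klf16 rose stepwise, from 67.6 to 75.8 CPM in CD43++ckit+ cells through 94.4 to 117.6 CPM in CD43+ckit- cells to 236.8 to 320.3 CPM in CD43-ckit- cells. Its populations did not overlap. The first step was -0.63 ± 0.15 SE (adjusted p = 0.00842) and the second -1.33 ± 0.15 SE (adjusted p = 0.000202), and both were called in every alternative run. From end to end it was 3.89-fold lower in CD43++ckit+ cells (adjusted p = 1.00e-05).

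Klf10 and Klf11 were first described as TGF-beta inducible early genes and also recruit SIN3. Klf11 measured 33.4, 27.1 and 24.0 CPM in CD43++ckit+ cells, 79.7, 56.9 and 55.9 CPM in CD43+ckit- cells, and 115.9, 68.3 and 58.9 CPM in CD43-ckit- cells. Every CD43++ckit+ library was below the other 6, which overlapped among themselves. Klf11 was 2.28-fold lower in CD43++ckit+ cells than in CD43+ckit- cells (-1.19 ± 0.27 SE, adjusted p = 0.00722) and 2.88-fold lower than in CD43-ckit- cells (-1.53 ± 0.27 SE, adjusted p = 0.000938). Between the c-Kit negative populations its difference was -0.34 ± 0.26 SE (adjusted p = 0.296) and turned to 0.35 with library totals (adjusted p = 0.134).

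Klf10 was the 1 gene of the 10 that missed the threshold in the joint test of the 3 populations (adjusted p = 0.105), in which 74.8% of tested genes were called. It passed that test with DESeq2 size factors (0.0191), library totals (0.000421), the DESeq2 test (0.00197), the filter of at least 1 CPM in all libraries (0.0236) and the 3 libraries least like their replicates left out (0.00633). The last of these settings lowers the spread tested, as said above. The level of Klf10 was 28.3, 29.2 and 26.7 CPM in CD43++ckit+ cells, 26.1, 20.6 and 20.9 CPM in CD43+ckit- cells, and 30.8, 27.8 and 25.3 CPM in CD43-ckit- cells. From CD43++ckit+ to CD43-ckit- cells it differed by 0.0058 ± 0.14 SE (adjusted p = 0.973). The course of Klf10 depended on the scaling: with library totals it was higher in CD43++ckit+ cells than in CD43-ckit- cells (0.93, adjusted p = 0.000168), and with DESeq2 size factors it was lower in CD43+ckit- cells than in CD43-ckit- cells (-0.51, adjusted p = 0.0124). In that last comparison library totals called it in the opposite direction, higher in CD43+ckit- cells (0.34, adjusted p = 0.0446). Of the 9 genes called in the joint test, the calls of Klf2 (adjusted p = 0.0170) and Klf4 (0.0202) were lost with library totals (0.0898 and 0.144). That of Klf2 was also lost with no low-count filter (0.0536) or without library 1 of CD43-ckit- (0.0505), and that of Klf4 when CD43++ckit+ library 1 (0.0539) or CD43-ckit- library 2 (0.0611) or 3 (0.0531) was left out.

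**Figure D3:**
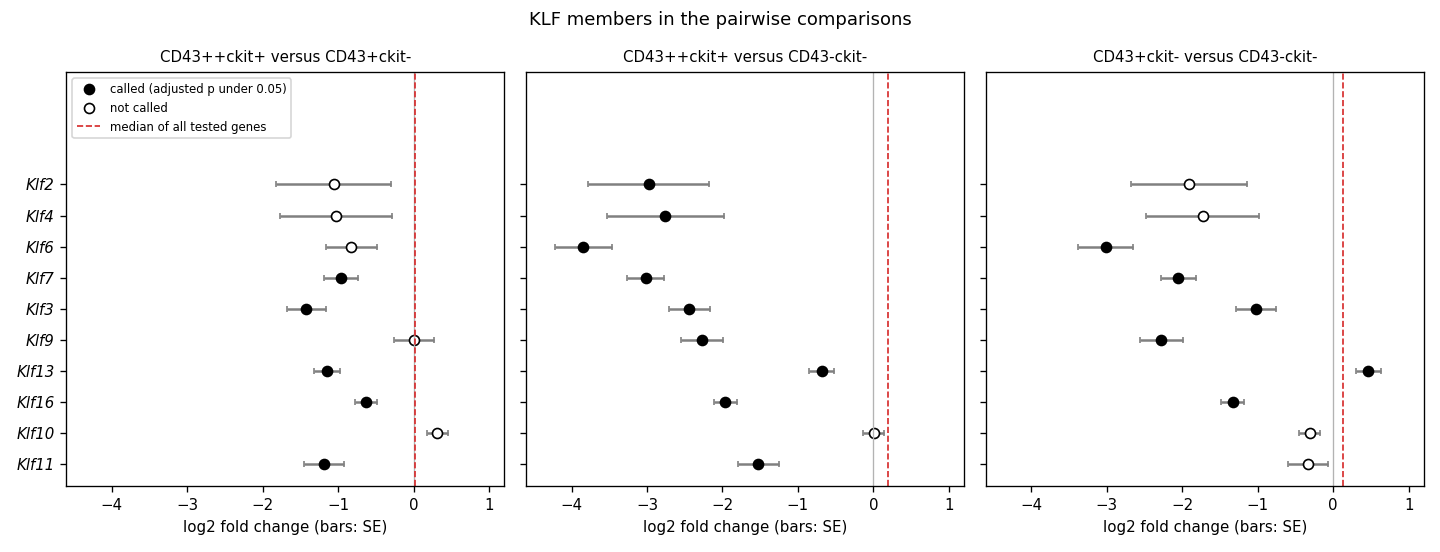
Log2 fold changes of the 10 KLF genes in the 3 pairwise comparisons, first-named population minus second, with bars for the standard error, filled points for called genes and a dashed line at the median of all tested genes. Called genes number 5, 9 and 6 from left to right, and Klf13 in the right panel (0.46) is the one called gene above 0.

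The size of the 2 steps differed for some genes, by the test of CD43+ckit- against the mean of the other 2 populations. Klf6 lay below that midpoint (-1.10 ± 0.30 SE, adjusted p = 0.0269), as did Klf9 (-1.14 ± 0.25 SE, adjusted p = 0.0102), so for these genes more of the rise fell between CD43+ckit- and CD43-ckit-. In that test 10.5% of genes were called lower. The Klf6 call was lost when CD43++ckit+ library 1 (adjusted p = 0.0569), CD43+ckit- library 2 (0.0807) or CD43+ckit- library 3 (0.108) was left out, and that of Klf9 held in every alternative run. For Klf3 (0.20 ± 0.22 SE, adjusted p = 0.524) and Klf11 (0.43 ± 0.23 SE, adjusted p = 0.182) no difference between the steps was called.

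These fold changes moved with the scaling. Library totals in place of TMM shifted the median of all tested genes by 0.91 in CD43++ckit+ versus CD43-ckit- and by 0.65 in CD43+ckit- versus CD43-ckit-, and higher calls rose from 58.9% to 82.2% and from 59.7% to 85.2% of calls. DESeq2 size factors shifted the medians by -0.24 and -0.20, with higher calls at 49.5% and 45.8%. In CD43++ckit+ versus CD43+ckit- library totals shifted the median by 0.27, with higher calls going from 49.4% to 67.0%. In the test of CD43+ckit- against the mean of the others, higher calls were 63.2% with TMM, 53.3% with size factors and 81.5% with library totals. Under library totals Klf2, Klf3, Klf6, Klf7, Klf9, Klf11 and Klf16 were still called lower in CD43++ckit+ cells than in CD43-ckit- cells, with Klf6 at -2.89 and Klf7 at -2.06.

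**Figure D4:**
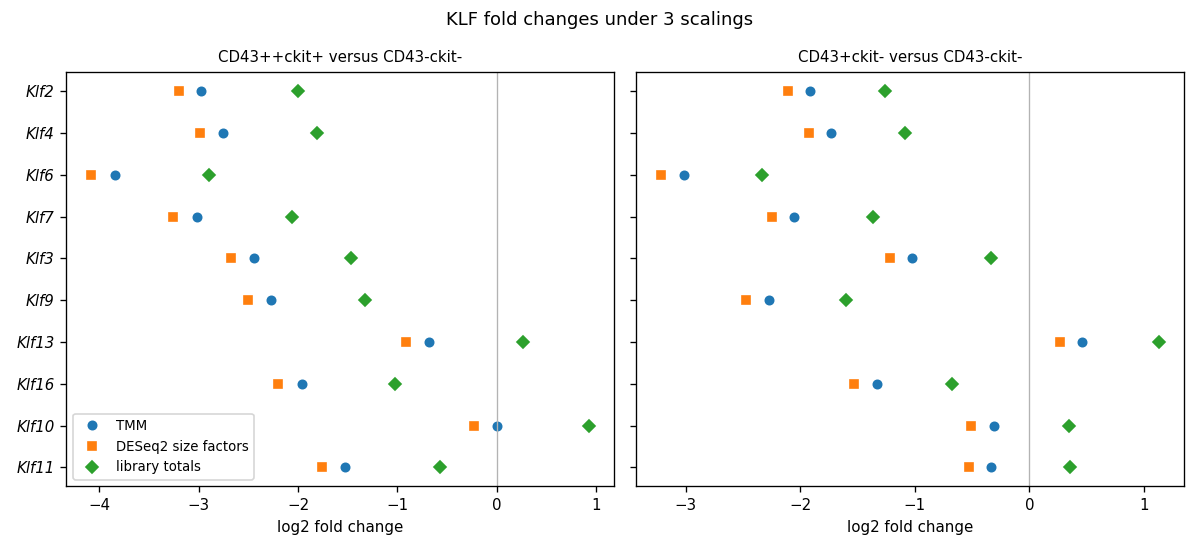
Log2 fold changes of the 10 KLF genes under TMM, DESeq2 size factors and library totals in the comparisons with CD43-ckit-. Library totals move every gene to the right, and Klf10 and Klf13 (left panel) and Klf10, Klf11 and Klf13 (right panel) lie above 0 under them.

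To compare genes with each other, CPM was divided by the length of the union of exons in GENCODE M21, which ranged from 1847 bases for Klf2 to 11243 for Klf3. The annotation used for the counts is not known, so these levels per kilobase are approximate. In CD43++ckit+ the highest were Klf16 (26.4 ± 1.65 CPM per kb, SD, n = 3), Klf13 (23.2 ± 3.46) and Klf6 (21.1 ± 5.37), of which Klf13 overlapped both others in range and Klf6 lay below every Klf16 library. Next came Klf10 (6.72 ± 0.30), Klf11 (6.48 ± 1.11) and Klf3 (4.24 ± 1.16), where Klf11 overlapped both others. Klf2 (2.67 ± 2.90) ranged so widely that it overlapped Klf3, Klf9 (2.07 ± 0.24), Klf7 (1.17 ± 0.14) and Klf4 (0.480 ± 0.507), and Klf7 overlapped Klf4 as well.

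In CD43+ckit- Klf13 led (51.3 ± 3.86 CPM per kb), followed by Klf16 (40.8 ± 4.79) and Klf6 (37.3 ± 13.6), and the Klf6 range of 27.7 to 52.8 spanned parts of both others. Klf11 (14.8 ± 3.11) and Klf3 (11.4 ± 1.38) overlapped by a narrow margin, and the range of Klf10 (5.40 ± 0.74) lay within that of Klf2 (5.60 ± 2.81). Klf7 (2.28 ± 0.092) and Klf9 (2.06 ± 0.65) overlapped, and Klf4 was lowest (0.984 ± 0.528).

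In CD43-ckit- Klf6 stood alone at the top, at 302.1 ± 116.0 CPM per kb with its lowest library at 211.9, above every Klf16 library (88.6 to 119.8, mean 102.9 ± 15.8). Klf13 (37.2 ± 7.07) was above the ranges of Klf3 (23.1 ± 7.69), Klf2 (21.1 ± 1.57) and Klf11 (18.7 ± 7.04), which overlapped. Klf7 (9.47 ± 3.26) overlapped both Klf9 (9.99 ± 3.05) and Klf10 (6.69 ± 0.66), and Klf4 (3.26 ± 0.49) was again lowest.

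As a share of the summed CPM per kb of the 10 genes, Klf6 went from 22.4% ± 6.15 in CD43++ckit+ cells and 21.4% ± 4.99 in CD43+ckit- cells to 55.7% ± 4.35 in CD43-ckit- cells (SD, n = 3). Klf13 went from 24.5% ± 2.88 and 29.98% ± 1.88 to 7.11% ± 0.794, and Klf10 from 7.12% ± 0.598 and 3.14% ± 0.136 to 1.30% ± 0.240. Such shares do not depend on the scaling between libraries, since every gene of a library is scaled alike. The sum of the 10 genes before division by length was 467.4 ± 21.9, 915.4 ± 122.6 and 2424 ± 766 CPM in the same order.

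**Figure D5:**
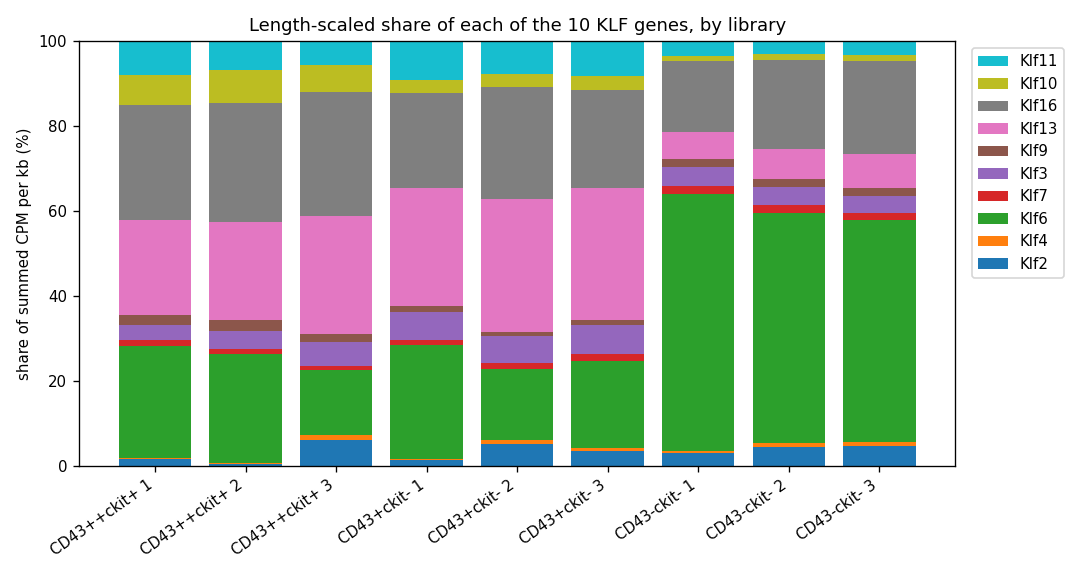
Share of each KLF gene in the summed CPM per kb of the 10 genes, stacked to 100% for each of the 9 libraries. Klf6 holds 52.3% to 60.6% of the bar in the CD43-ckit- libraries and 15.3% to 26.7% in the others.

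Across the 9 libraries, the courses of the genes were described by Pearson's r of log2 CPM, where the points share the 3 populations and the libraries, so that r includes the differences between population means. Klf2 and Klf4 were most alike (r of 0.992), followed by Klf7 and Klf16 (0.988), Klf6 and Klf7 (0.983) and Klf6 and Klf9 (0.974). Klf10 had its lowest r with Klf13 (-0.525). Among 8306 other genes of at least moderate level, Klf3 had 1146 with r above 0.9, Klf6 had 960, Klf2 had 269 and Klf10 had 18, so a high r was common for most members. The nearest to Klf6 were Chd2, Vezf1 and Ing2 (0.997 to 0.999), to Klf7 Sgms1, Wnk1 and Cpeb3 (0.997 to 0.998), and to Klf9 Slc25a36, Rnf103 and Spty2d1 (0.992 to 0.997). Klf2 was nearest to Gpd1l, the B cell coactivator gene Pou2af1 and Lbh (0.987 to 0.993), and Klf4 to Klf2, Lbh and Wdfy4 (0.990 to 0.992). Klf3 was nearest to Daxx, Ifnar2 and Sowaha (0.994 each), Klf16 to B4galt3, Pnp and Ptov1 (0.997 to 0.998) and Klf11 to Parp6, Med12 and Atp6v1d (0.990 to 0.991). Among the genes nearest to Klf13 were Agfg2 and Actn4 (0.993 and 0.990), and Klf10 was nearest to Ptpn12, Trim33 and Tra2b (0.952 to 0.957).

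Shares of all tested genes called give the background for the list counts from here on. They were 19.7% higher and 20.1% lower in CD43++ckit+ versus CD43+ckit-, and 39.7% and 27.7% in CD43++ckit+ versus CD43-ckit-. In CD43+ckit- versus CD43-ckit- they were 31.0% higher and 20.9% lower. With lists this short, counts near these shares do not set a list apart. The SP factors bind the same kind of DNA element as the KLFs. Of 9 listed, 6 were tested: 1 was lower and 0 higher in CD43++ckit+ cells than in CD43+ckit- cells, 4 lower and 0 higher than in CD43-ckit- cells, and 3 were lower and 1 higher in CD43+ckit- cells than in CD43-ckit- cells. Sp2 was lower in CD43++ckit+ cells than in both others (-1.17, adjusted p = 0.000855, and -1.58, adjusted p = 5.84e-05). Sp1 was 128.4 ± 6.86, 116.4 ± 7.83 and 258.3 ± 64.0 CPM (SD, n = 3), and like Sp3 (-1.09) and Sp4 (-0.95) it was lower in CD43+ckit- cells than in CD43-ckit- cells (-1.15, adjusted p = 0.000798).

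Klf2 and Klf4 are known to be induced through the ERK5 kinase and MEF2 factors, and Klf2 through FOXO factors. Of 9 genes listed for these inputs, 0 were higher and 2 lower in CD43++ckit+ cells than in CD43+ckit- cells, 2 higher and 5 lower than in CD43-ckit- cells, and 2 were higher and 6 lower in CD43+ckit- cells than in CD43-ckit- cells. Mef2d was 61.7 ± 2.37, 79.7 ± 5.96 and 416.5 ± 91.2 CPM in the 3 populations, and it was lower in CD43+ckit- cells than in CD43-ckit- cells (-2.39, adjusted p = 3.12e-05). Foxo3, a stress-responsive factor of red cell maturation, was 120.2 ± 6.32, 430.9 ± 40.3 and 1531 ± 555 CPM, with both steps called (-1.84 and -1.83). Map3k3, a kinase upstream of ERK5, was lower in CD43++ckit+ cells than in CD43-ckit- cells (-2.17), and Map2k5, which activates ERK5 directly, was higher (1.15).

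In the TGF-beta list, whose signal induces Klf10 and Klf11, 7 of 12 genes were higher and 2 lower in CD43++ckit+ cells than in CD43+ckit- cells, 4 higher and 4 lower than in CD43-ckit- cells, and 1 was higher and 9 lower in CD43+ckit- cells than in CD43-ckit- cells. The receptor gene Tgfbr2 was 36.8 ± 7.55, 9.78 ± 3.36 and 17.0 ± 1.38 CPM, and the signal transducer Smad2 39.2 ± 6.75, 14.96 ± 1.74 and 19.7 ± 2.19 CPM. Both were higher in CD43++ckit+ cells than in CD43+ckit- cells (1.91 and 1.39). The inhibitor Smad7 went the other way, at 24.8 ± 1.57, 64.8 ± 4.03 and 166.0 ± 73.3 CPM (-1.38 and -1.36 for the 2 steps, both called). Skil, another inhibitor, was lower in CD43+ckit- cells than in CD43-ckit- cells (-2.35) at 1.14 and 5.86 CPM.

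Among 8 corepressor genes, 2 were higher and 2 lower in CD43++ckit+ cells than in CD43+ckit- cells, 3 higher and 2 lower than in CD43-ckit- cells, and 3 higher and 4 lower in CD43+ckit- cells than in CD43-ckit- cells. Sin3b, a scaffold for Klf9, Klf13 and Klf16, was 77.5 ± 4.07, 113.2 ± 10.4 and 248.4 ± 5.43 CPM, with both steps called (-0.55 and -1.13). The deacetylase gene Hdac2 fell in both steps, from 96.0 ± 20.4 to 50.3 ± 5.71 and 27.0 ± 4.55 CPM (0.93 and 0.90), and Hdac1 was higher in CD43+ckit- cells than in CD43-ckit- cells (0.85). Sap30, a SIN3 complex subunit, was lower in CD43+ckit- cells than in CD43-ckit- cells (-1.20).

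Of 8 glucocorticoid-responsive genes, the class to which Klf9 belongs, 2 were lower in CD43++ckit+ cells than in CD43+ckit- cells, 4 were lower than in CD43-ckit- cells, and 5 were lower in CD43+ckit- cells than in CD43-ckit- cells, with 0 higher in any of these. Tsc22d3, which encodes the leucine zipper protein GILZ, was 14.3 ± 3.86, 40.4 ± 8.12 and 196.3 ± 33.6 CPM, with both steps called (-1.50 and -2.28). Sgk1, a kinase, had steps of -1.65 and -2.04, both called. The clock gene Per1 was lower in CD43+ckit- cells than in CD43-ckit- cells (-2.75), and so was Dusp1, a MAP kinase phosphatase (-1.57, adjusted p = 0.0418).

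Of 4 ubiquitin ligases of KLF proteins, 2 were higher and 0 lower in CD43++ckit+ cells than in CD43+ckit- cells, 2 were higher and 0 lower than in CD43-ckit- cells, and 0 were higher and 1 lower in CD43+ckit- cells than in CD43-ckit- cells. Wwp1, which acts on KLF2 and KLF5, was 18.1 ± 4.82, 10.1 ± 2.80 and 10.9 ± 2.10 CPM. Smurf1 was lowest in CD43+ckit- cells (1.35 ± 0.301 CPM, against 3.84 ± 0.544 in CD43++ckit+ cells and 4.68 ± 1.83 in CD43-ckit- cells). Fbxw7 was higher in CD43++ckit+ cells than in CD43-ckit- cells (0.61, adjusted p = 0.0164), and Itch stood at 55.8 ± 8.26, 56.6 ± 15.1 and 74.0 ± 20.1 CPM without a call.

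Genes reported elsewhere as targets of KLF2 or KLF4 did not share a course. Of 7 tested, 2 were higher and 1 lower in CD43++ckit+ cells than in CD43+ckit- cells, 2 higher and 3 lower than in CD43-ckit- cells, and 1 higher and 1 lower in CD43+ckit- cells than in CD43-ckit- cells. Cdkn1a, the cell cycle inhibitor p21, was 67.5 ± 34.6, 93.3 ± 17.5 and 2023 ± 506 CPM, and it was lower in CD43+ckit- cells than in CD43-ckit- cells (-4.44, adjusted p = 0.000134). S1pr1, the lymphocyte egress receptor, had its highest mean where Klf2 had its lowest, at 16.5 ± 5.94, 2.46 ± 0.80 and 4.48 ± 1.84 CPM (2.74 for CD43++ckit+ versus CD43+ckit-, adjusted p = 0.00121). Klf2 itself was not called in that comparison (adjusted p = 0.308), and its libraries overlapped. The integrin gene Itgb7 peaked in CD43+ckit- cells (838.1 ± 85.9 CPM, against 356.3 ± 26.8 and 476.3 ± 85.6).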

How the data were processed

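The authors deposited 1 table of whole-number read counts, with a row per gene symbol and a column per library. Per the labels' protocols, total RNA was made into libraries with an Illumina TruSeq kit. Per the submitters' processing notes the tools were HTSeq, RSEM, TopHat2 2.0.4, CASAVA 1.8 and edgeR, with no role stated for any. The build named there is human while the rows are mouse symbols, so which build, annotation and strand setting made this table is not given in the sources used here.

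The test was edgeR 4.0.16 (R 4.3.3) on these counts: filterByExpr (minimum count 10, minimum total 15), TMM scaling and a robust quasi-likelihood fit of 3 group means to all 9 libraries, with Benjamini-Hochberg adjustment over the 12573 genes tested. Standard errors are the size of the log2 fold change over the square root of F. The steps were tested on simulated data. With 2-fold changes they recovered fewer genes than the mark set for the test, and with 4-fold changes, tried after that, they met it. Differences of about 2-fold can thus be missed. The simulation gave all genes the same spread, so larger differences can also be missed in genes that vary more between libraries. Klf2, for example, was 3.77-fold lower in CD43+ckit- cells than in CD43-ckit- cells and was not called in the main fit (adjusted p = 0.0646). DESeq2 1.42.0 served as an alternative, beside other scalings, filters, left-out libraries and replicate blocks. Within populations, chi-square divided by its degrees of freedom was 15.2 to 117.5 for pairs of libraries, and no pair was merged.

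Replicate numbers are shared between populations. Same-numbered deviations from the group means of CD43+ckit- and CD43-ckit- correlated at 0.525, 0.366 and 0.303, each above 0.1, so these libraries were used as blocks. However, library 2 of CD43+ckit- correlated with library 3 of CD43-ckit- at 0.343, and library 3 with library 2 at 0.349. Pairing by number thus cannot be told apart from library 1 standing apart in both populations. Between CD43++ckit+ and the others number 2 correlated at -0.617 and -0.318, so the numbers were not taken to pair CD43++ckit+ libraries with those. The members and lists were chosen with earlier results of these data known. All members are named, and from each pathway list the up to 4 genes with the smallest adjusted p in the joint test among those whose mean log2 CPM reached 1. For each member the 3 genes of nearest course are named, from those whose mean log2 CPM reached 3. Some genes that these rules name are not reported here. Sequences come from RefSeq (GRCm38.p6), and their direction was checked against GENCODE M21 transcripts.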

Additional observations from a re-analysis of the deposited data

How the results depend on the processing

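Of the member results recomputed under alternatives, 737 kept their direction and side of the threshold, 53 gained a call, 22 lost one and 23 turned direction; the cause was not tested. With DESeq2 size factors Klf9 turned to -0.0342 for CD43++ckit+ versus CD43+ckit- and Klf10 to -0.23 for CD43++ckit+ versus CD43-ckit-. The DESeq2 test gave -0.0344 and -0.23, and the filter of at least 1 CPM in all libraries gave -0.0207 and -0.18. Klf10 turned to -0.0889 in a fit of the 2 populations alone. Library totals turned Klf13 to 0.26 for CD43++ckit+ versus CD43-ckit-, and Klf10 and Klf11 to 0.34 and 0.35 for CD43+ckit- versus CD43-ckit-. Leaving out 1 library gave -0.13 to 0.27 for Klf9 (CD43++ckit+ versus CD43+ckit-), -0.0578 to 0.0904 for Klf10 (CD43++ckit+ versus CD43-ckit-) and -0.51 to 0.0248 for Klf11 (CD43+ckit- versus CD43-ckit-). For CD43+ckit- against the mean of the others it gave -0.92 to 0.27 for Klf2 and -0.76 to 0.31 for Klf4, and with the least correlated library removed from every population these were 0.59 and 0.63. That setting called 10 of the KLF genes and 8557 genes in all in CD43++ckit+ versus CD43+ckit- (5005 with all libraries), and 9 and 6517 for CD43+ckit- against the mean (3 and 3576). Its choice of libraries lowers the spread that the test measures. In the test against the mean 6 KLF genes were called with DESeq2 size factors, with the stricter filter and in the DESeq2 test, and 5 with the replicate block over all 9 libraries. Of all tested genes these settings called 26.8%, 35.6%, 35.3% and 26.4%, and the main fit called 28.4% in that test. Leaving out 1 library there called 2 to 5 KLF genes and 1965 to 4562 genes, the most KLF genes without library 3 of CD43-ckit-, and 1965, 2038 and 2213 genes without library 1, 2 or 3 of CD43+ckit-. The replicate block over all 9 libraries also called Klf6 in CD43++ckit+ versus CD43+ckit- and Klf7 and Klf11 against the mean (adjusted p = 0.0116, 0.0485 and 0.0328). That block includes CD43++ckit+ libraries, which the numbers were not taken to pair with the others. In CD43+ckit- versus CD43-ckit-, a replicate block in the fit of those 2 populations called 8 KLF genes in place of 6, and it changed no other call there. That fit called 67.2% of all tested genes, against 51.9% in the main fit. Klf4 is limited by depth in CD43++ckit+, where it had 34, 11 and 144 counts.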
